A study of Mus musculus with 32 samples.

Results

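The effect of a brown fat transplant on satellite cells was followed at day 7 after muscle injury in 8 libraries, out of 32 in the whole study. They were taken by their labelled cell type and day: 4 libraries from muscles that received brown adipose tissue (BAT) and 4 from control muscles. The study took paired muscles from the same animal, and the code in the labels joins the libraries into 4 pairs, treated here as 4 mice. Expression was measured by RNA sequencing of sorted cells.

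In the BAT group, the supraspinatus of wild-type male C57BL/6J mice of 12 weeks was injured with cardiotoxin and then given interscapular brown fat of donors of 3 weeks. In the control group, the supraspinatus was injured with cardiotoxin and given no fat. The supraspinatus is a muscle of the rotator cuff of the shoulder, and cardiotoxin is a venom toxin that kills muscle fibres and spares much of the stem cell pool. All 8 libraries carry the injury, and no uninjured muscle, sham operation or graft of another tissue was analysed here. The gate, labelled CD45-/CD31-/Sca1+/a7integrin+, took cells without the leukocyte and endothelial markers and with integrin alpha 7. The study also sorted fibro-adipogenic progenitors (FAPs), the mesenchymal cells between the fibres, and took both cell types at day 3.

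Satellite cells are the stem cells of skeletal muscle and lie between the fibre and its basal lamina. After injury they leave quiescence, divide as myoblasts that carry Pax7, Myf5 and Myod1, and then switch on Myog, leave the cell cycle and fuse into new fibres. Fusing cells first make developmental forms of the contractile proteins and later replace them with adult forms, among them the fast myosin heavy chains and the enzymes that buffer energy in fast fibres. Brown fat burns fuel for heat and also secretes factors, and the study asks whether it alters this regeneration.

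The markers of satellite cells were present in all 8 libraries. Levels are given as counts-per-million values (CPM), the counts of a gene scaled to its library total, in the order of replicates 1, 2, 3 and 4, where the same number marks the same mouse in both groups. Pax7, the transcription factor that defines satellite cells, was at 87.7, 134, 52.8 and 115 CPM in BAT muscles, against 164, 109, 65.4 and 150 CPM in control muscles. Myod1, the regulator that commits them to muscle, was at 212, 218, 184 and 197 CPM with BAT, against 367, 254, 166 and 330 CPM in control. Ptprc (CD45) was at most 1.11 CPM, and Pecam1 (CD31) at most 3.65 CPM. Ly6a, which encodes Sca1, was at 5.01 to 10.7 CPM with BAT and at 4.30 to 9.30 CPM in control, although the gate is labelled Sca1 positive. The mouse of replicate 3 held Xist at 301 CPM with BAT and 355 CPM in control and had 0 counts of the Y-linked Ddx3y, against its label as a male. The other 6 libraries had at most 0.161 CPM of Xist and at least 72.3 CPM of Ddx3y, so the called genes and the main lists are also given without replicate 3.

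Total counts were 22931834 to 25136444 with BAT and 23489427 to 31013379 in control, so that a gene with no counts could still be at up to 0.131 CPM where depth was lowest (a limit of 3 counts, counting error only). Of the variation between the 8 libraries, 63.3% lay between mice (3 degrees of freedom), 10.1% between BAT and control (1), and 26.5% was residual (3). Each share depends on its degrees of freedom, so the 10.1% alone does not measure an effect of BAT. Each BAT library resembled the control library of its own mouse more than that of any other mouse. Seen from the control side, however, control replicate 1 resembled BAT replicate 4 more than BAT replicate 1. The pairs, as given by the shared codes, entered every main test as a block. The p-values of the BAT effect thus measure how the difference within a mouse varied over these 4 mice, not the spread of levels between mice. In such bulk samples, fewer cells of a type and less RNA per cell cannot be told apart. Nor can RNA made in the sorted cells be told apart from RNA of mature fibres carried into the sort.

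With BAT, 3 of 16868 genes fell and 0 rose in day 7 satellite cells (edgeR quasi-likelihood test with Benjamini-Hochberg adjusted p under 0.05), so that 0.0178% of the genes tested were called lower. All 3 belong to fast muscle fibres: Myh4, the IIb myosin heavy chain and motor protein of the fastest fibres, Mybpc2, the fast form of myosin-binding protein C, and Ckm, the muscle creatine kinase that regenerates ATP from phosphocreatine. At an unadjusted p under 0.05, 441 genes were higher (2.61%) and 820 were lower (4.86%). DESeq2 called 4 genes higher (0.0274%) and 35 lower (0.24%), and limma voom called 0 higher and 5 lower (0.0296%), with the same 3 among the lower genes of each tool.

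Myh4 was at 7.76, 17.9, 6.48 and 26.9 CPM in BAT muscles, against 19.1, 44.8, 18.96 and 73.9 CPM in control muscles. It was lower with BAT in 4 of 4 mice, by log2 ratios of -1.28, -1.30, -1.49 and -1.45. The groups overlapped, because mice 2 and 4 held more of it than mice 1 and 3 in both muscles. The fitted log2 change was -1.39 ± 0.12 (SE, edgeR adjusted p = 0.00595).

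Mybpc2 was at 12.0, 27.3, 9.35 and 34.7 CPM with BAT, against 26.0, 54.1, 24.5 and 74.5 CPM in control, and the same mice were high. Its log2 ratios within a mouse lay between -1.34 and -0.97, with a fitted change of -1.13 ± 0.12 (SE, edgeR adjusted p = 0.0125). Ckm was at 163, 546, 115 and 445 CPM with BAT, against 397, 962, 242 and 974 CPM in control. Again each BAT library lay below the control library of its mouse, while BAT replicates 2 and 4 lay above control replicates 1 and 3. The fitted change of Ckm was -1.05 ± 0.11 (SE, edgeR adjusted p = 0.0115).

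Without replicate 3, Myh4 was still called (log2 change -1.35, adjusted p = 0.0331), whereas Mybpc2 (-1.06) and Ckm (-1.06) each had an adjusted p of 0.0710. Leaving out replicate 1 gave 0.0456 for Myh4 and 0.0746 for Mybpc2 and Ckm, leaving out replicate 2 gave 0.0121, 0.0217 and 0.0117 for Myh4, Mybpc2 and Ckm, and leaving out replicate 4 gave 0.239 for all 3. With no replicate block 0 genes were called, and with all 16 libraries of day 7 in 1 fit the adjusted p was 0.407 for Myh4, 0.031 for Mybpc2 and 0.261 for Ckm.

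**Figure D1:**
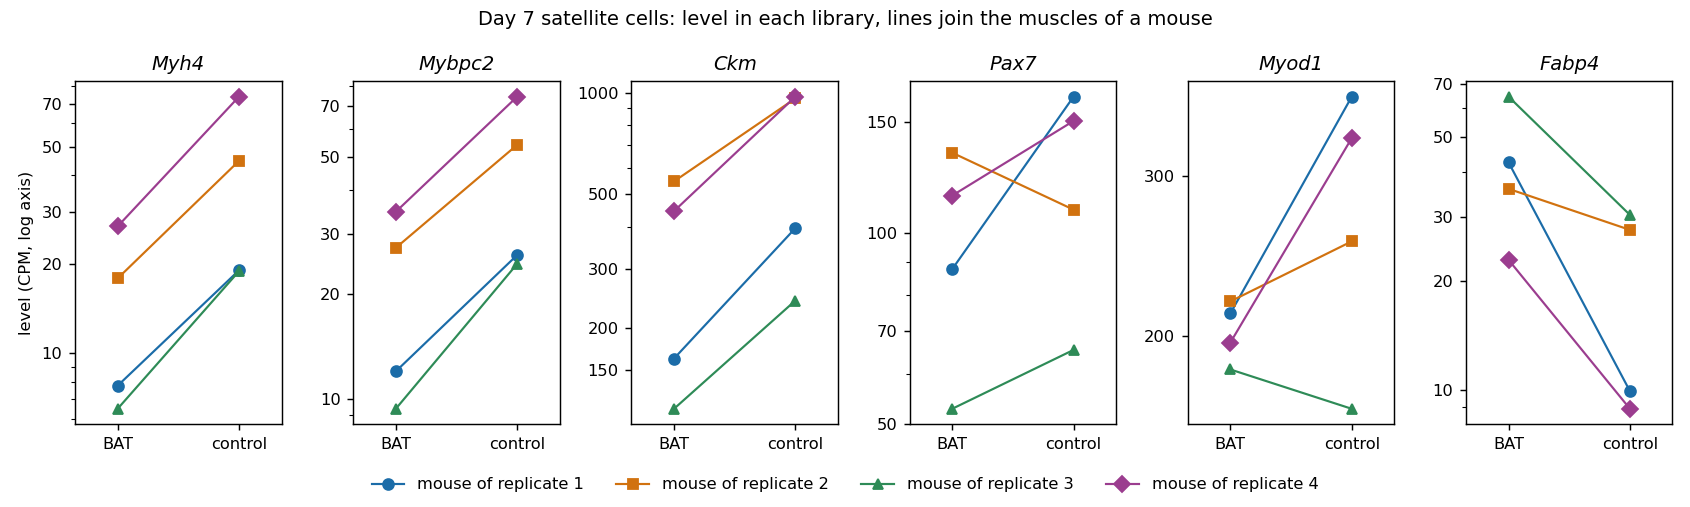
Levels of 6 genes in the 8 libraries (CPM, log axis), with BAT on the left and control on the right of each panel and a line joining the muscles of each mouse. Myh4, Mybpc2 and Ckm are lower with BAT in 4 of 4 mice, Pax7 and Myod1 in 3 of 4, and Fabp4 is higher with BAT in 4 of 4.

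The promoters of the 3 called genes are shown because these genes fell together. Each runs from 250 bases before to 50 after the RefSeq start site (GRCm38.p6), 5′ to 3′ on the strand of the gene. Capitals mark matches, on either strand, to the E-box CANNTG (bound by Myod1 and its relatives), to TATAAA and to the MEF2 consensus. The gene bodies lie at chr11:67238029-67260446 (Myh4, plus strand), chr7:44501699-44524656 (Mybpc2, minus strand) and chr7:19404776-19422841 (Ckm, plus strand) in the GENCODE M21 annotation of mm10. The RefSeq start used lies upstream of the GENCODE body of Myh4 and inside that of Ckm. The promoter windows are chr11:67237562-67237861 on the plus strand for Myh4, chr7:44524620-44524919 on the minus strand for Mybpc2 and chr7:19410844-19411143 on the plus strand for Ckm.
Myh4: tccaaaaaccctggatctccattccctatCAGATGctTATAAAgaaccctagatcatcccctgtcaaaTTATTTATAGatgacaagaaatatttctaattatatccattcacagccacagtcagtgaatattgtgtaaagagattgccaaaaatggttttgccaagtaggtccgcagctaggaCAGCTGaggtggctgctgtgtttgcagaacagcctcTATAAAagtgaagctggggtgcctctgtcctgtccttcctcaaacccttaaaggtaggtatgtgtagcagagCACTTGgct
Mybpc2: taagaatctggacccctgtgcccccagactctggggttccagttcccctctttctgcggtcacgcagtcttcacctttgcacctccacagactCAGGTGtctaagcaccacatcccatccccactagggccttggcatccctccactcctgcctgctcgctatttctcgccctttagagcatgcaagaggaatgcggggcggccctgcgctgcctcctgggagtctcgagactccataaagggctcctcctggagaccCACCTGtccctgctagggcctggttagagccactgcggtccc
Ckm: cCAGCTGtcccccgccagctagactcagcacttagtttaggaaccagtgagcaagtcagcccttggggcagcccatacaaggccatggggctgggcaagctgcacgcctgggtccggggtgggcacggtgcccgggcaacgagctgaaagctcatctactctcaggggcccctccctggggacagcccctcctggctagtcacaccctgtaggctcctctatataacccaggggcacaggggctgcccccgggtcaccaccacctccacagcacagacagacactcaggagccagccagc

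The Myh4 window holds 3 E-boxes, 3 matches to TATAAA and 1 to the MEF2 consensus, which overlaps 1 of the TATAAA matches on the minus strand. The Mybpc2 window holds 2 E-boxes and the Ckm window 1. An E-box stands in 72.3% of 32851 RefSeq promoter windows of this length, CAGCTG in 16.3%, TATAAA in 13.6% and the MEF2 consensus in 1.86%. The E-box CAGCTG is at -67 in Myh4 and at -249 in Ckm, counted from the start site.

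The adult fast sarcomere, the contractile unit of fast fibres, was low as a group. Of its 14 genes, 14 were fitted below 0 (13 under upper-quartile scaling), against 8436 of all 16868 genes, and 10 were lower in 4 of 4 mice, against 7.97% of all genes. The median log2 change was -0.62, with medians of -0.76, -0.62, -0.76 and -0.43 in the 4 mice. Besides Myh4 and Mybpc2, 0 passed the adjusted threshold. The list and the other lists below were drawn up with earlier results of these data known.

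Skeletal actin, Acta1, was at 839, 2171, 674 and 2098 CPM with BAT, against 1485, 3284, 1367 and 3147 CPM in control (log2 change -0.74 ± 0.11 SE, edgeR adjusted p = 0.112). The fast troponin T gene Tnnt3 was at 159, 282, 162 and 431 CPM with BAT and at 273, 482, 281 and 541 CPM in control (-0.65 ± 0.11, adjusted p = 0.167). Each of these BAT libraries lay below its own control, and replicates 2 and 4 were again high in both muscles. DESeq2 called both genes lower.

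The light chains Myl1 (-0.62 ± 0.11 SE) and Mylpf (-0.62 ± 0.11) and the troponins Tnni2 (-0.60 ± 0.11) and Tnnc2 (-0.67 ± 0.13) were lower in 4 of 4 mice with edgeR adjusted p of 0.225, 0.225, 0.266 and 0.337. Mylf-ps, a pseudogene of Mylpf, was at -0.66 ± 0.11, and reads of the pair cannot be kept apart with certainty. Myh1, the IIx myosin, was at 6.76, 20.3, 5.33 and 17.0 CPM with BAT, against 12.4, 21.1, 16.2 and 37.4 CPM in control (-0.88 ± 0.22, adjusted p = 0.608). Reads of Myh1, Myh2, Myh4 and Myh8 may be split between these near-identical genes. The tropomyosin gene Tpm2, which other cells also express, was at -0.09 ± 0.10.

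The summed level of the 14 genes was 3461, 5396, 3277 and 6660 CPM with BAT, against 4637, 8051, 4733 and 8494 CPM in control. Every pair was lower with BAT, and the sums of mice 2 and 4 exceeded those of mice 1 and 3.

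The second group was energy supply. Of 16 genes for energy buffering and glycogen breakdown in fibres, 15 were tested and 15 were fitted below 0, with a median of -0.46 (mouse medians -0.48, -0.53, -0.72 and -0.25), and 10 were lower in 4 of 4 mice. Ckm was the only one called. Ak1, adenylate kinase, was at 73.7, 130, 54.7 and 143 CPM with BAT, against 104, 223, 97.9 and 230 CPM in control (-0.68 ± 0.10 SE, edgeR adjusted p = 0.112). Pygm, the muscle glycogen phosphorylase, was at 50.6, 72.4, 26.3 and 64.0 CPM with BAT, against 73.0, 104, 48.9 and 126 CPM in control (-0.71 ± 0.12, adjusted p = 0.167).

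In both genes each pair was lower with BAT, and the groups overlapped between mice. The muscle phosphoglycerate mutase Pgam2 was at -0.66 ± 0.13 (SE, edgeR adjusted p = 0.266), the muscle enolase Eno3 at -0.42 ± 0.10 (0.605) and the mitochondrial creatine kinase Ckmt2 at -0.51 ± 0.15 (0.627). Mb, which encodes the oxygen store myoglobin, was at 5.76, 19.4, 7.72 and 22.4 CPM with BAT, against 14.997, 29.3, 15.5 and 22.2 CPM in control. It was lower in 3 of 4 mice (-0.70 ± 0.21).

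**Figure D2:**
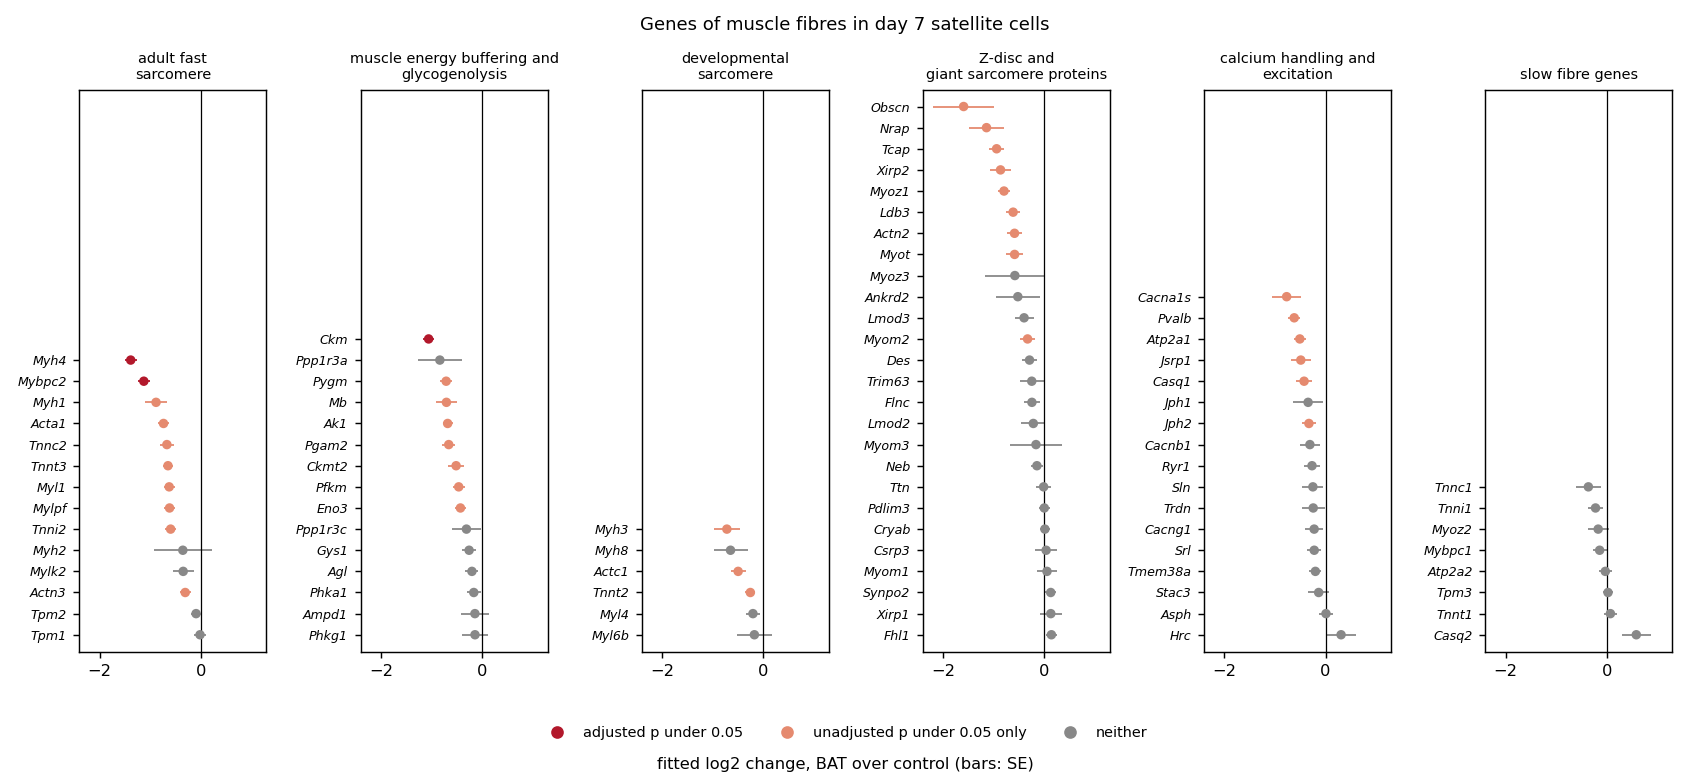
Fitted log2 change, BAT over control, with SE bars, for the 86 tested genes of 6 muscle fibre lists, 1 panel per list. Dark red marks the 3 genes with an adjusted p under 0.05, light red the other genes with an unadjusted p under 0.05, all on the lower side, and 75 of the 86 genes lie below 0. The 6 lists were grouped after the data were seen.

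The remaining parts of the fibre were lower by less. The 6 developmental sarcomere genes were all fitted below 0, with a median of -0.37. Among them, Actc1, the cardiac actin of embryonic muscle, was at 105, 191, 182 and 191 CPM with BAT, against 229, 203, 238 and 266 CPM in control (-0.49 ± 0.15 SE, edgeR adjusted p = 0.627). The groups of Actc1 did not overlap. The embryonic myosin Myh3 was at 4.10, 4.10, 12.4 and 4.92 CPM with BAT and at 4.02, 10.5, 14.9 and 12.6 CPM in control (-0.72 ± 0.25, adjusted p = 0.627), lower in 3 of 4 mice.

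Of 26 genes for the Z-disc and the giant proteins that order the sarcomere, 20 were fitted below 0 (19 with RLE and 18 with upper-quartile scaling) and 9 were lower in 4 of 4 mice, with a median of -0.27. Tcap, the cap of titin, was at 10.8, 15.96, 13.3 and 28.1 CPM with BAT, against 22.2, 39.9, 27.0 and 39.4 CPM in control (-0.94 ± 0.15 SE, edgeR adjusted p = 0.167). Myoz1, which ties calcineurin to the Z-disc of fast fibres, was at 39.9, 47.6, 34.5 and 92.8 CPM with BAT, against 60.9, 108, 65.3 and 138 CPM in control (-0.80 ± 0.12, adjusted p = 0.144). Both were lower in every pair. Ttn and Neb, the giant proteins themselves, were at -0.01 ± 0.15 and -0.15 ± 0.11.

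Of 19 calcium-handling and excitation genes, 17 were tested, 15 were below 0 and 5 were lower in 4 of 4 mice, with a median of -0.27. Pvalb, a calcium buffer of fast fibres, was at 58.8, 85.0, 51.6 and 158 CPM with BAT, against 102, 154, 79.1 and 195 CPM in control (-0.62 ± 0.11 SE, edgeR adjusted p = 0.238). The calcium pump Atp2a1 was at -0.51 ± 0.12 (0.569) and the calcium store protein Casq1 at -0.42 ± 0.16 (0.632), both lower in 4 of 4 mice. Genes of slow fibres showed less: 5 of 8 tested were below 0, with a median of -0.08, and Casq2 was at 0.58 ± 0.29.

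Over the 6 lists together, 75 of 86 tested genes were below 0 (74 with RLE and 72 with upper-quartile scaling), and 37 were lower in 4 of 4 mice. At an unadjusted p, 36 were lower, against 4.86% of all genes, and 0 were higher. Without replicate 3, 72 of the 86 were below 0, 31 were lower and 1 was higher at an unadjusted p, and 5.67% of all genes were lower. The medians without replicate 3 were -0.56 for the fast sarcomere and -0.48 for the energy list, and the changes were -0.66 for Acta1, -0.64 for Ak1 and -0.93 for Tcap. Of the 35 genes that DESeq2 called lower (0.24% of 14578 genes with an adjusted p), 17 belong to these lists.

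Genes outside the fibre lists were among the lowest too. Cilp, a cartilage matrix protein also found in tendon, was at 155, 175, 25.3 and 147 CPM with BAT, against 234, 393, 45.4 and 298 CPM in control (-0.89 ± 0.11 SE, edgeR adjusted p = 0.0524). It missed the threshold here and passed with DESeq2, with limma voom, under upper-quartile scaling, with a filter of 1 CPM and with no filter. Each pair was lower with BAT, mouse 3 was low in both muscles, and the change without it was -0.91.

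Thbs4, a matrix protein of tendon and muscle, was at 180, 136, 17.98 and 168 CPM with BAT, against 274, 304, 26.8 and 240 CPM in control (-0.70 ± 0.12 SE, edgeR adjusted p = 0.225). Col22a1, a collagen of the muscle-tendon junction, was at 10.6, 5.06, 2.55 and 11.8 CPM with BAT, against 25.2, 16.5, 2.85 and 23.4 CPM in control (-1.06 ± 0.22, adjusted p = 0.42). In both, mouse 3 was again low. Ankrd9 was at -1.22 ± 0.20 (adjusted p = 0.167), the RNA helicase Ddx54 at -0.63 ± 0.11 (0.2) and Entpd4, a nucleotide hydrolase of the Golgi, at -1.07 ± 0.25 (0.568), which is uncertain because Entpd4 has a near-identical copy.

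The genes that define satellite cells and their commitment showed smaller differences, with the median of mouse 2 on the other side of 0. Of 21 identity genes, 15 were fitted below 0 (14 with RLE and 13 with upper-quartile scaling), with a median of -0.16 and mouse medians of -0.20, 0.20, -0.12 and -0.32. Pax7 was at -0.31 ± 0.16 (SE, edgeR adjusted p = 0.697) and lower in 3 of 4 mice, with replicate 2 higher. Cdh15, an adhesion protein of the satellite cell niche, was at 398, 720, 308 and 492 CPM with BAT and at 627, 582, 420 and 748 CPM in control (-0.33 ± 0.15, adjusted p = 0.668).

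Itga7, the integrin of the gate, was at 628, 762, 396 and 486 CPM with BAT, against 873, 814, 490 and 865 CPM in control. It was lower in 4 of 4 mice (-0.41 ± 0.13 SE, edgeR adjusted p = 0.627). Spry1, an inhibitor of growth factor signals needed for return to quiescence, was at 117, 138, 88.0 and 113 CPM with BAT and at 144, 161, 109 and 159 CPM in control (-0.31 ± 0.10, adjusted p = 0.627). Myf5, which marks cells primed for muscle, stood on the other side, at 345, 774, 454 and 637 CPM with BAT, against 278, 541, 498 and 422 CPM in control. It was higher in 3 of 4 mice (0.34 ± 0.12, adjusted p = 0.627).

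Myod1 was at -0.38 ± 0.16 (SE, edgeR adjusted p = 0.638). Myog, the regulator of terminal differentiation, was at 589, 673, 1046 and 779 CPM with BAT and at 890, 597, 1297 and 897 CPM in control (-0.21 ± 0.13, adjusted p = 0.706). In both genes 3 of 4 mice were lower with BAT, and the mouse that was higher differed, replicate 3 for Myod1 and replicate 2 for Myog. Boc, a cell surface receptor that promotes differentiation, was lower in 4 of 4 mice (-0.41 ± 0.13, adjusted p = 0.627). Of the 20 regulators and fusion genes, 17 were below 0 (16 with RLE or upper-quartile scaling), with a median of -0.05 that was 0.0207 without replicate 1.

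Notch signalling, which holds satellite cells in quiescence, had 11 of 19 genes below 0 (12 without mitochondrially encoded genes in the library size) and a median of -0.16. Its receptor Notch3 was at 115, 130, 80.4 and 106 CPM with BAT, against 173, 178, 70.5 and 154 CPM in control (-0.33 ± 0.14 SE, edgeR adjusted p = 0.641). Its target Heyl was at 377, 783, 223 and 474 CPM with BAT and at 527, 678, 290 and 665 CPM in control (-0.27 ± 0.13, adjusted p = 0.668). Each was lower in 3 of 4 mice. For the acetylcholine receptor and the neuromuscular junction, 11 of 11 tested genes were below 0, with a median of -0.15 and mouse medians of -0.60, 0.25, -0.14 and -0.23. Without replicate 2 that median was -0.32, and without replicate 1 -0.0792. Dok7, an organiser of the junction, was at 27.3, 25.7, 30.8 and 24.1 CPM with BAT, against 53.5, 30.4, 31.9 and 37.4 CPM in control (-0.46 ± 0.16, adjusted p = 0.627).

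**Figure D3:**
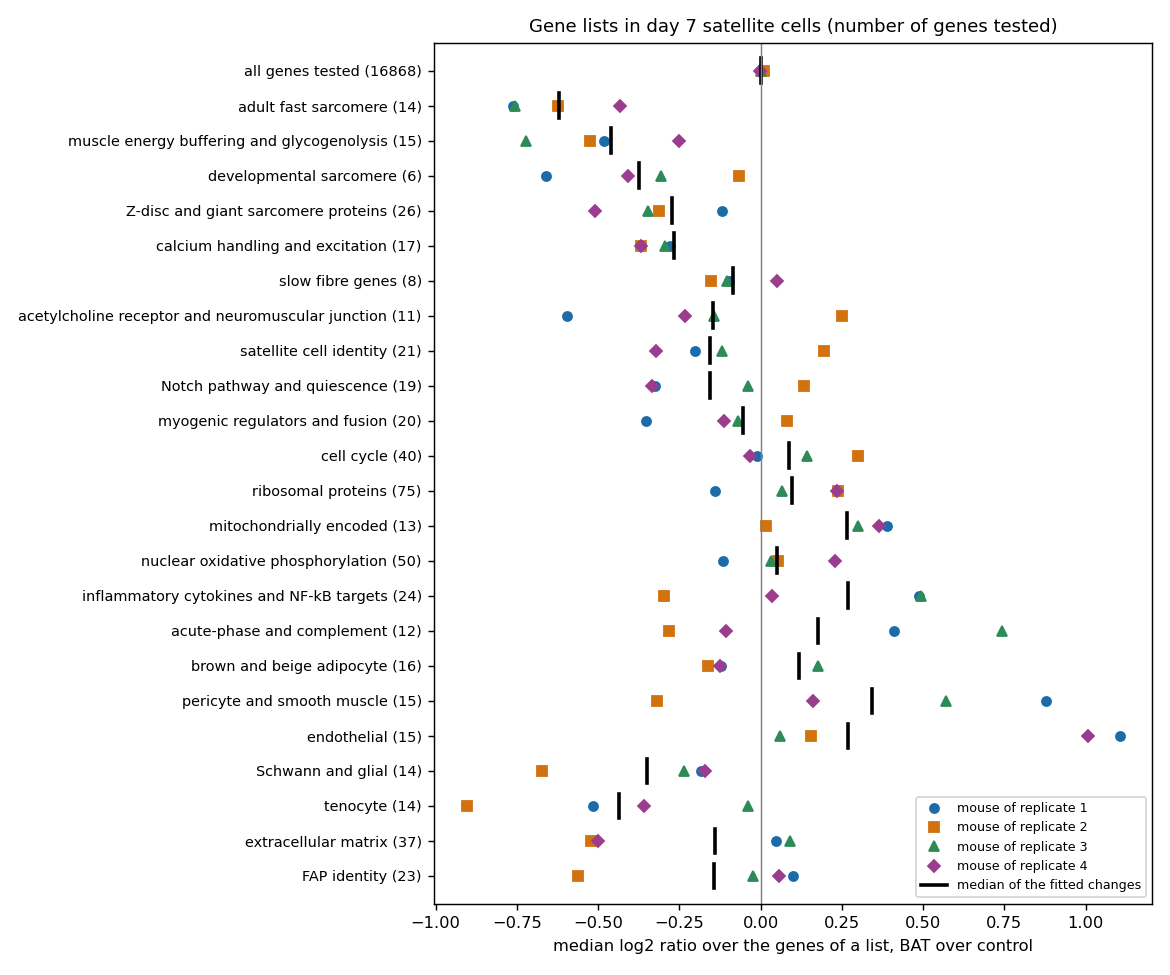
Median log2 ratio, BAT over control, over the genes of 23 lists and over all genes tested. Coloured symbols are the 4 mice and black bars the median of the fitted changes. The fast sarcomere, energy, calcium, Z-disc, developmental sarcomere, tenocyte and Schwann lists lie below 0 in 4 of 4 mice. The mitochondrially encoded and endothelial lists lie above 0 in 4 of 4, while the identity and pericyte lists have mouse 2 on the other side of 0.

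Transcripts encoded in mitochondria stood higher with BAT. They made up 4.514%, 3.97%, 4.838% and 4.262% of counts with BAT, against 3.594%, 3.753%, 4.176% and 3.486% in control. The share was higher in 4 of 4 mice, by 0.644 ± 0.303 percentage points (SD, n = 4; exact two-sided sign-flip permutation p = 0.125, the smallest that 4 pairs allow). All 13 mitochondrially encoded messages were fitted above 0, with a median of 0.27 and mouse medians of 0.39, 0.02, 0.30 and 0.36, and 9 had an unadjusted p under 0.05, against 2.61% of all genes. In 8 of them each mouse was higher with BAT, against 8.02% of all genes. Without replicate 3 the median was 0.28.

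mt-Nd2, a subunit of complex I, was at 473, 393, 586 and 478 CPM with BAT, against 311, 374, 439 and 332 CPM in control (0.43 ± 0.11 SE, edgeR adjusted p = 0.626). mt-Co1, a catalytic subunit of complex IV, was at 6706, 6127, 7087 and 6218 CPM with BAT, against 4266, 5450, 5931 and 4982 CPM in control (0.37 ± 0.11, adjusted p = 0.626). The groups of mt-Co1 did not overlap. Mouse 2 showed the smallest difference in both.

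Of the nuclear genes of oxidative phosphorylation, 36 of 50 were above 0 (35 without mitochondrially encoded genes in the library size), with a median of 0.05. Within that list 6 genes were lower in 4 of 4 mice, against 7.97% of all genes, and 7 were higher, against 8.02%. Those on the lower side included 3 muscle forms, singled out after their values were seen. Cox6a2, the muscle form of a complex IV subunit, was at 7.76, 9.71, 8.83 and 19.4 CPM with BAT, against 13.2, 20.1, 13.5 and 23.2 CPM in control (-0.65 ± 0.16 SE, edgeR adjusted p = 0.605). The muscle and brown fat forms Cox7a1 (-0.62 ± 0.19) and Cox8b (-0.54 ± 0.19) were also lower in 4 of 4 mice, each with an adjusted p of 0.627. Uqcrc1 was lower in each pair too, at 347, 435.5, 294 and 359 CPM with BAT, against 453, 479, 370 and 551 CPM in control. Cycs, cytochrome c, was at 97.8, 86.9, 149 and 129 CPM with BAT, against 82.0, 79.7, 118 and 94.9 CPM in control, higher in 4 of 4 mice (0.31 ± 0.10, adjusted p = 0.627).

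Growth and stress programmes showed small shifts, with 0 genes called. Of 40 cell cycle genes, 32 were above 0 with a median of 0.09, and the mouse medians were -0.01, 0.30, 0.14 and -0.03. Ccnb1, the cyclin of mitotic entry, was at 107, 116, 186 and 123 CPM with BAT, against 89.4, 79.1, 167 and 98.8 CPM in control. It was higher in 4 of 4 mice (0.34 ± 0.10 SE, edgeR adjusted p = 0.627). Ribosomal protein genes were above 0 in 69 of 75 cases (71 with RLE or upper-quartile scaling and 68 without mitochondrially encoded genes in the library size), with a median of 0.10. Mouse 1 had a ribosomal median of -0.14.

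On the higher side 0 genes passed, and those described next had small p-values or large changes. Fabp4, a fatty acid binding protein of fat cells and capillaries, was at 42.5, 35.9, 64.5 and 22.9 CPM with BAT, against 9.95, 27.7, 30.5 and 8.90 CPM in control. It was higher in 4 of 4 mice, by the least in mouse 2 (1.24 ± 0.23 SE, edgeR adjusted p = 0.238), and DESeq2 called it. Without replicate 3 its change was 1.28. Cd36, a fatty acid transporter, was at 25.2, 16.6, 33.1 and 16.3 CPM with BAT, against 12.0, 20.5, 14.3 and 7.02 CPM in control (0.82 ± 0.24, adjusted p = 0.626). Mouse 2 alone was lower.

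Fst, follistatin, which binds myostatin and activins, was at 7.02, 5.69, 7.24 and 4.35 CPM with BAT, against 2.56, 5.29, 3.05 and 2.51 CPM in control (0.92 ± 0.26 SE, edgeR adjusted p = 0.626). Spp1, osteopontin, was at 269, 332, 393 and 479 CPM with BAT, against 186, 293, 335 and 311 CPM in control (0.41 ± 0.11, adjusted p = 0.626). Nnmt, nicotinamide N-methyltransferase, was at 50.6, 53.8, 52.6 and 51.8 CPM with BAT, against 32.1, 44.9, 39.1 and 36.4 CPM in control (0.48 ± 0.11, adjusted p = 0.535). These 3 were higher in 4 of 4 mice, and the groups of Nnmt did not overlap. Tcim (0.45 ± 0.09, adjusted p = 0.42), Rhoh (0.70 ± 0.16, adjusted p = 0.535) and Gm8783 (0.83 ± 0.17, adjusted p = 0.42) were higher in 4 of 4 mice as well. Gm8783 is annotated as a processed pseudogene, so its reads may belong to another gene.

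Hp, haptoglobin, which binds free haemoglobin, was at 8.33, 7.76, 407 and 3.00 CPM with BAT, against 2.79, 6.90, 101 and 1.15 CPM in control. Mouse 3 stood far above the others in both muscles, and the change was 1.34 ± 0.27 (SE, edgeR adjusted p = 0.331) with it and 1.01 without it.

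Among 25 inflammatory cytokines and NF-kB targets, 24 were tested, 15 were above 0 and 0 were called, with a median of 0.27 and mouse medians of 0.49, -0.30, 0.49 and 0.03. That median was 0.13 without replicate 1, 0.51 without replicate 2 and 0.0606 without replicate 3. Il6, a cytokine that satellite cells and stromal cells release after injury, was at 175, 172, 330 and 73.4 CPM with BAT, against 50.3, 231, 152 and 59.9 CPM in control (0.72 ± 0.29 SE, edgeR adjusted p = 0.636). The chemokine Ccl11 was at 55.8, 38.5, 61.3 and 18.7 CPM with BAT, against 14.5, 39.5, 27.5 and 10.9 CPM in control (0.98 ± 0.26, adjusted p = 0.626). In both, mice 1 and 3 were clearly higher with BAT and mouse 2 was lower.

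Defining genes of brown fat were at or near 0. Ucp1, which makes brown fat produce heat, was at 0.436 CPM in BAT replicate 1 and at 0 counts in the other 7 libraries, and Adipoq, an adipokine, was at most 0.131 CPM. Of 22 brown and beige fat genes, 16 were tested and 9 were above 0, with a median of 0.12. Without replicate 3 that median was -0.11.

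Markers of other cells were present and differed between the muscles, and their part in the results above was not tested. Myh4, Myh1, Ckm, Pvalb and Mb, given above, are also markers of mature fibres. Whether their RNA came from satellite cells or from fibre material in the sort was not tested. Of 15 pericyte and smooth muscle genes, 12 were above 0, with a median of 0.34 and mouse medians of 0.88, -0.32, 0.57 and 0.16. Rgs5, a defining pericyte gene, was at 751, 858, 1066 and 456 CPM with BAT, against 414, 1060, 476 and 236 CPM in control (0.69 ± 0.20 SE, edgeR adjusted p = 0.626). Kcnj8, a potassium channel subunit of pericytes, was at 74.3, 91.7, 57.7 and 36.1 CPM with BAT, against 32.3, 95.9, 31.7 and 21.7 CPM in control (0.70 ± 0.18, adjusted p = 0.626).

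Rgs5 and Kcnj8 were higher in mice 1, 3 and 4 and lower in mouse 2. Cspg4, also a pericyte marker, was at 39.9, 79.5, 15.5 and 24.1 CPM with BAT, against 34.1, 107, 14.5 and 36.1 CPM in control. It was higher in mice 1 and 3 and lower in mice 2 and 4. The summed pericyte list was at 3393 to 4944 CPM with BAT and at 3294 to 5852 CPM in control. The median of the list was 0.11 without replicate 1 and 0.57 without replicate 2. Without replicate 2, edgeR called 10 genes higher and 4 lower, and Rgs5 (log2 change 1.01), Kcnj8, Cd36, Fabp4 and Hp were among the 10.

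Tenocyte genes stood on the lower side: 13 of 14 tested were below 0, with a median of -0.44, and their summed level was 298 to 1261 CPM with BAT and 357 to 1835 CPM in control, lower in 4 of 4 mice. Without replicate 3 the median was -0.64. Fmod, fibromodulin of tendon, was at 108, 113, 18.7 and 103 CPM with BAT, against 190, 206, 17.1 and 189 CPM in control (-0.61 ± 0.16 SE, edgeR adjusted p = 0.626). Cilp and Thbs4, described above, belong to this list. Cilp, Thbs4 and Fmod are not particular to tenocytes here, with means of 2540, 1649 and 1560 CPM in control FAPs of day 7. The tenocyte marker Scx was at 6.45, 3.46, 5.89 and 6.97 CPM with BAT, against 8.66, 4.93, 5.61 and 5.87 CPM in control. Tnmd, another marker, was at 71.6, 29.5, 11.6 and 90.7 CPM with BAT, against 85.6, 58.2, 10.3 and 83.3 CPM in control. Both markers were lower in mice 1 and 2 and higher in mice 3 and 4. The collagen gene Col1a1 was at 1504, 1581, 531 and 743 CPM with BAT, against 1547, 6431, 540 and 2260 CPM in control (-0.90 ± 0.31, adjusted p = 0.627). Its difference lay in mice 2 and 4.

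Schwann cell genes were below 0 in 11 of 14 cases, with a median of -0.35 and a summed level of 578 to 1379 CPM with BAT and 652 to 1813 CPM in control, lower in 4 of 4 mice. The median was -0.36 without replicate 3 and -0.22 without replicate 2. Mbp, the myelin basic protein, was at 216, 183, 43.3 and 167 CPM with BAT, against 274, 362, 53.6 and 201 CPM in control (-0.46 ± 0.13 SE, edgeR adjusted p = 0.626). Mouse 3 held the least tenocyte and Schwann RNA in both muscles. The log2 ratio of Myh4 in mouse 3 was -1.49, against -1.45 to -1.28 in the other mice, and that of Ckm -1.02, against -1.27 to -0.80. Whether the fibre genes vary with the amount of RNA from other cells was not tested, and 1 mouse cannot decide it.

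FAP identity genes, those of the other sorted cell type, had a summed level of 2009, 2186, 1238 and 1902 CPM with BAT, against 2467, 2541, 1274 and 2378 CPM in control. Each pair was lower with BAT, by the least in mouse 3. The direction was less clear gene by gene, with 14 of 23 tested genes below 0, a median of -0.14 and mouse medians of 0.10, -0.56, -0.02 and 0.06. Without replicate 2 the median was 0.0579.

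Of 26 macrophage genes, 13 were tested and 6 were above 0, with a median of -0.08 that was 0.48 without replicate 2. Among their defining genes Adgre1 and Csf1r were at most 0.761 and 1.56 CPM. The endothelial list had 9 of 15 tested genes above 0 (10 with upper-quartile scaling) and a median of 0.27, at a summed 105 to 194 CPM with BAT and 84.6 to 250.5 CPM in control. Its mouse medians were 1.11, 0.15, 0.06 and 1.01, and the median was 0.0622 without replicate 1 and 0.57 without replicate 2.

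**Figure D4:**
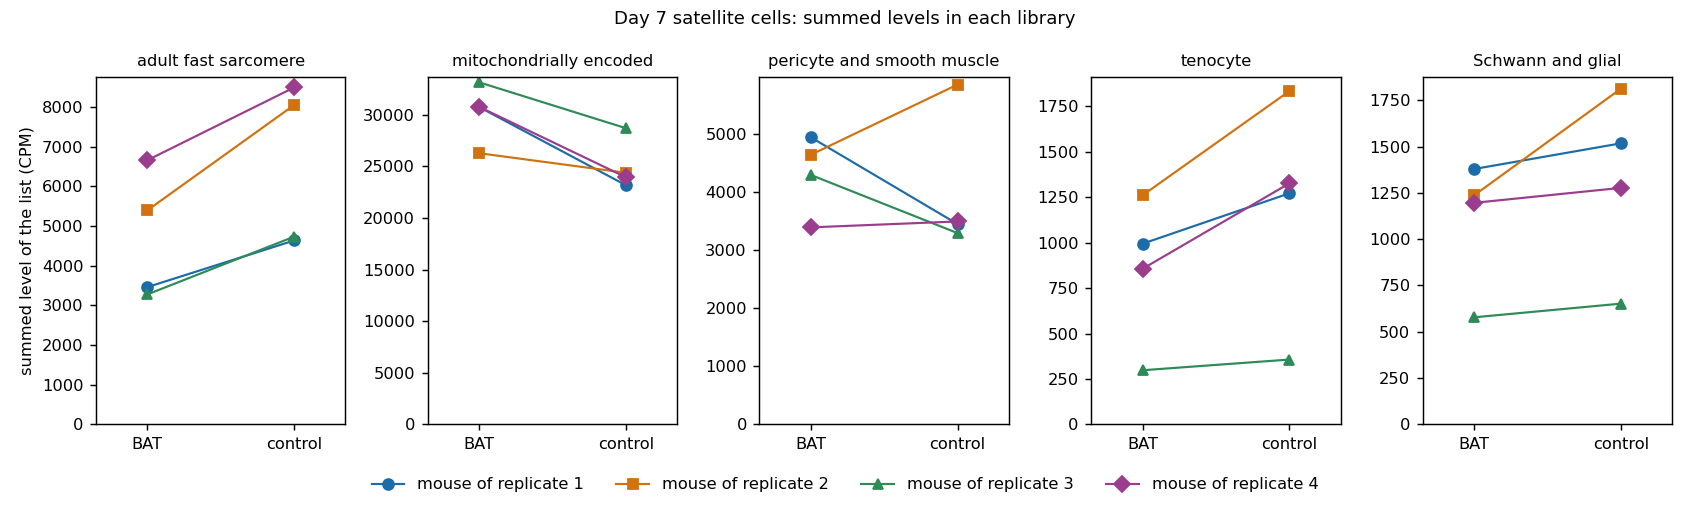
Summed level (CPM) of 5 gene lists in the 8 libraries, with BAT on the left and control on the right of each panel and a line joining the muscles of each mouse. The fast sarcomere, tenocyte and Schwann sums are lower with BAT in 4 of 4 mice, the mitochondrially encoded sum is higher in 4 of 4, and the pericyte sum is higher in 2 of 4.

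The BAT effect was then set beside that in FAPs of the same mice at day 7 and beside that in satellite cells of other mice at day 3. In those comparisons alone, 0 of 16021 and 0 of 15631 genes were called by edgeR. At an unadjusted p under 0.05, 418 genes were higher (2.61%) and 365 lower (2.28%) in FAPs, and 220 were higher (1.41%) and 252 lower (1.61%) at day 3. Myh4 was at 0.0909 to 1.63 CPM in BAT FAPs and at 0.0328 to 1.43 CPM in control FAPs (-0.23 ± 0.75 SE). In day 3 satellite cells it reached at most 0.613 CPM with BAT and 0.582 CPM in control and was not tested. Ckm was at -0.44 ± 0.26 in FAPs and at 0.36 ± 0.20 in day 3 satellite cells. Mybpc2 was at -1.03 ± 0.36 in FAPs, at a level of at most 2.69 CPM.

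The difference between the effects was itself tested, and 0 of 18033 genes passed for satellite cells minus FAPs and 0 of 17774 for day 7 minus day 3 (edgeR). In the test against FAPs each cell type of a mouse was its own block. A response to BAT shared by both cell types of a muscle was therefore not modelled. At an unadjusted p under 0.05, 420 genes were higher (2.33%) and 785 lower (4.35%) for the cell types, and 306 were higher (1.72%) and 604 lower (3.4%) for the days. Therefore none of the 3 called genes is shown to be particular to day 7 satellite cells by this test. For Ckm the change was lower at day 7 than at day 3 by a log2 difference of -1.43 ± 0.21 (SE, edgeR adjusted p = 0.372), and for Ak1 by -0.84 ± 0.11 (adjusted p = 0.372). The difference of Ak1 between satellite cells and FAPs was -0.81 ± 0.14 (adjusted p = 0.691). For the cell types DESeq2 called 4 genes higher (0.0313%) and 6 lower (0.0469%), with Ak1 and Ankrd23 among the lower. For the days it called 2 higher (0.0113%) and 6 lower (0.0338%), with Ckm, Ak1, Acta1 and Pygm among the lower. Day 3 libraries come from other mice and another deposited table, so the day and any batch cannot be told apart.

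Over the fast sarcomere list, the median change was -0.62 in day 7 satellite cells, -0.32 in FAPs (12 genes tested, 9 below 0) and -0.03 in day 3 satellite cells (11 tested, 8 below 0). In FAPs the summed level of the list ran the other way, at 601, 599, 954 and 719 CPM with BAT, against 541, 550.1, 939 and 592 CPM in control. There 2 of its genes were higher and 1 lower at an unadjusted p under 0.05. Acta1, Myl1 and Tnnc2 were a small part of that sum, with means of 52.9, 9.53 and 7.27 CPM in BAT FAPs, against 60.7, 13.3 and 11.4 CPM in control FAPs. Each was lower in mice 1, 3 and 4 and higher in mouse 2, so the higher sum does not describe these fibre genes. For the energy list the median was -0.46, 0.00 and 0.15. For the mitochondrially encoded list it was 0.27, -0.03 and -0.12. The cell cycle list had 40 genes tested in all 3 comparisons, with medians of 0.09, 0.26 and 0.00.

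**Figure D5:**
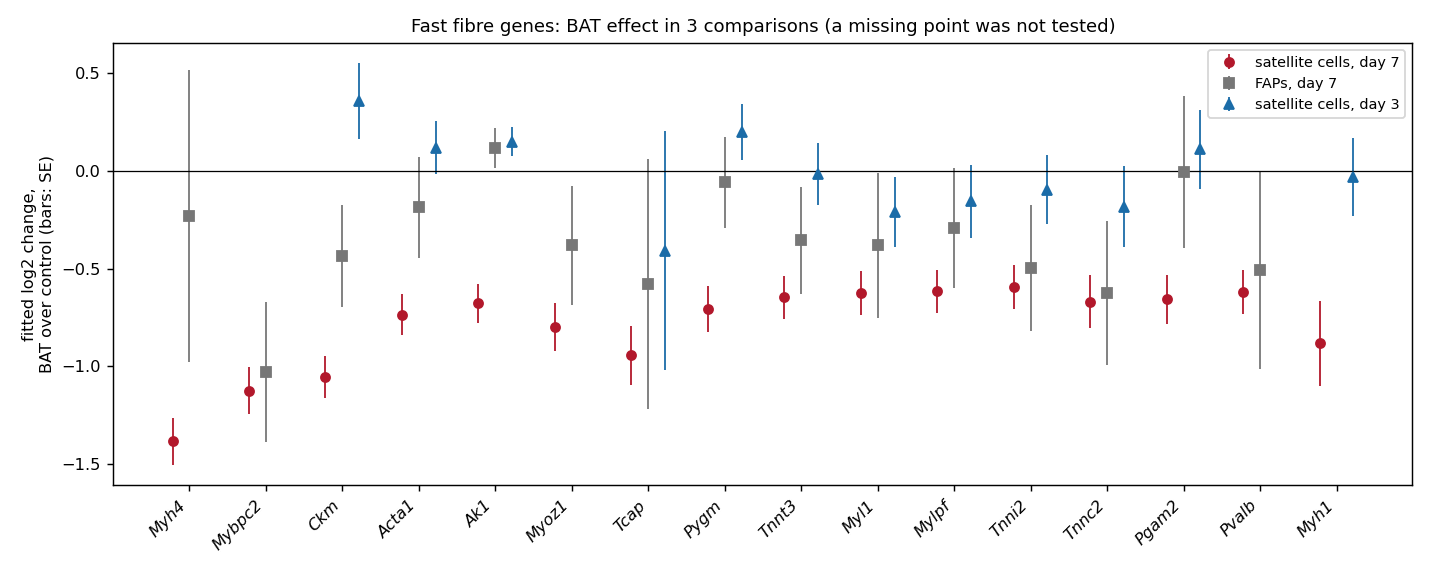
Fitted log2 change, BAT over control, with SE bars, for 16 fast fibre genes in day 7 satellite cells (circles), day 7 FAPs (squares) and day 3 satellite cells (triangles). All 16 circles lie below 0, while day 3 triangles lie on both sides of 0 and the FAP bar of Myh4 is the widest.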

How the data were processed

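RNA was sequenced from sorted cells, with 10 ng of input RNA of integrity number above 8 and the SMARTer Ultra Low kit (per the labels' protocols). For each day the authors deposited expected counts per gene, not normalised; of the day 7 values above 0, 72.2% are exactly whole as written (no tolerance). The submitters' processing notes name DRAGEN and mm10. The sources used here give no version, annotation, strand setting or treatment of multi-mapping reads. After removal of 287 repeated entries 55487 genes remained. The numbers of replicates 1 to 3 and the mouse codes come from the labels, and the unnumbered library of each group was called replicate 4. Codes 1a (replicate 4) and 1b (replicate 1) were taken as separate mice, which the labels do not spell out.

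Counts were rounded and tested with edgeR 4.0.16 (TMM, filterByExpr with minimum count 10, quasi-likelihood F test, mouse as block, Benjamini-Hochberg adjusted p under 0.05), over all genes. The block follows the study's statement that pairs share a mouse and the shared codes. Each BAT library had its highest correlation of deviations with its own control library (0.147 to 0.514). Control replicate 1, however, correlated more with BAT replicate 4 (0.213) than with BAT replicate 1 (0.147). SE is the change over the square root of F. Ratios within a mouse use TMM-scaled log2 CPM with a prior count of 2. All levels are plain CPM. DESeq2 1.42.0 and limma voom 3.58.1 were alternatives, with other scalings, filters, no block, a joint fit of 16 libraries and each replicate left out. The fits were checked on simulated data for the direction of large planted changes. The simulated libraries held no differences between mice, so that check does not cover the pairing. No 2 replicates were alike within counting noise.

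The genes, the 40 gene lists and the comparisons were chosen with earlier results of these data known. Named genes are those called, the 10 with the smallest p in each direction, those with the largest changes, and the members of each list with the smallest p or highest level. Sequences come from RefSeq tables of GRCm38.p6, with coordinates of genes from GENCODE M21.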

Additional observations from a re-analysis of the deposited data

Results flagged for a closer look

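Within a group of 4 libraries, 24 of 270 groups of values held 1 library that stood apart from the other 3 by Dixon's test, and chance gives about 1 in 20. In 11 of the 24 that library was replicate 3, in 8 replicate 2, in 4 replicate 1 and in 1 replicate 4.

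In replicate 3 these were the number of genes detected with BAT (22141), the summed cell cycle list with BAT (5650 CPM) and the summed FAP identity list in control (1274 CPM). Single genes that stood apart in replicate 3 were Myh3 (12.4 CPM) and Ncmap (7.68 CPM) with BAT, Itga7 (490 CPM) and Cenpe (63.3 CPM) in control, Hp with BAT (407 CPM) and in control (101 CPM), and Fmod with BAT (18.7 CPM) and in control (17.1 CPM).

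Replicate 2 stood apart in the summed p53 targets with BAT (1939 CPM). In control it stood apart in the summed myogenic regulators (2778 CPM), oxidative stress defence genes (5056 CPM), pericyte genes (5852 CPM) and neutrophil genes (18.4 CPM), and in Enpep (22.3 CPM), Kcnj8 (95.9 CPM) and Rgs4 (136 CPM).

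Replicate 1 stood apart in Actc1 with BAT (105 CPM), in Ibsp with BAT (28.6 CPM) and in control (0.102 CPM), and in the summed macrophage genes of control (630.1 CPM). Replicate 4 stood apart in Cox6a2 with BAT (19.4 CPM).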

How the results depend on the processing

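For the BAT effect in satellite cells, genes called higher numbered 0 and genes called lower 3. With no filter on low counts these were 80 and 126, with DESeq2 4 and 35, with limma voom 0 and 5, with no replicate block 0 and 0, and with all 16 libraries of day 7 in 1 fit 0 and 1. Leaving out each replicate gave 0 to 10 called higher and 0 to 4 called lower. The replicate block changed no direction of a named gene, but without it 6 rather than 36 fibre genes were lower at an unadjusted p (a count added after seeing the data). For the difference from FAPs, no filter gave 50 higher and 133 lower and DESeq2 4 and 6, against 0. For the difference from day 3, no filter gave 1 lower and DESeq2 2 higher and 6 lower, against 0. The cause was not tested.

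List medians moved by over 1 SD of the mouse medians only for the adipogenesis list without a filter (0.0493, against -0.04) and when a replicate was left out. Those ranges were -0.11 to 0.0534 for adipogenesis, -0.11 to 0.20 for brown and beige fat, -0.36 to -0.23 for calcium handling, -0.19 to 0.48 for macrophages, -1.004 to 0.0808 for neutrophils and -0.0684 to 0.0117 for protein breakdown. Under these settings the medians of the fast sarcomere and energy lists stayed below 0. The 4 pairs and the spread of the differences within them limit what could be called, and genes under about 1 CPM rest on few counts.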

Other observations

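Ibsp, a sialoprotein of bone matrix, had the smallest p for the difference of the BAT effect between satellite cells and FAPs (edgeR adjusted p = 0.174). It was at 28.6, 0, 0 and 0.479 CPM in BAT satellite cells and, in control satellite cells, at 0.102, 0, 0 and 0 CPM, so that 1 library held most of its counts. In FAPs it was at 0.221, 0.135, 0.227 and 2.31 CPM with BAT and at 4.32, 0.0983, 0.861 and 6.03 CPM in control.

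Ddx11, a DNA helicase, was at 9.40 to 12.9 CPM in BAT satellite cells against 13.2 to 13.9 CPM in control, and the groups did not overlap (-0.29 ± 0.15 SE, edgeR adjusted p = 0.681). In FAPs its change was 0.99, and the difference between the cell types was -1.29 ± 0.25 (adjusted p = 0.691). Peg3, an imprinted gene of satellite cells, was at 674, 598, 384 and 661 CPM with BAT and at 939, 536, 617 and 934 CPM in control (-0.36 ± 0.13, adjusted p = 0.633). Of 19 genes of the IGF system and imprinted growth genes, 16 were below 0 (14 with RLE or upper-quartile scaling), with a median of -0.17.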
